A study of Mus musculus with 3 samples.

Results

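Bone morphogenetic proteins (BMPs) are secreted dimers of the TGF-beta family that bind pairs of type I and type II serine/threonine kinase receptors and act through SMAD1, SMAD5 and SMAD9. Secreted antagonists such as Noggin, Chordin and Follistatin bind the ligands outside the cell and keep them from their receptors, and the range of a BMP signal is set by both kinds of protein. In the developing inner ear, Bmp4 is a classical marker of the epithelial patches that form the cristae of the semicircular canals, and BMP signalling is known for its part in the outgrowth of the canals. The 9 genes described here are 5 ligands (Bmp2, Bmp3, Bmp4, Bmp5 and Bmp7) and 4 genes of antagonists or extracellular modulators (Bmper, Fst, Nog and Chrd), out of 32285 genes counted. They were chosen by name, and their transcripts were summed in cells defined by a few other genes.

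Single cells of otic vesicles, the closed epithelial pouches from which the inner ear grows, were sequenced from mouse embryos at E10.5, in embryonic days. The library named CD comes from embryos of genotype Sox9Y440X/+, which carry 1 changed copy of the transcription factor gene Sox9, and WT replicates 1 and 2 come from wild-type embryos. Vesicles of each library were pooled, and the number of embryos, their litters and the strain are not given in the labels. The study's title names an opposition of SOX9 and Wnt in the otocyst, and endolymphatic development under SOX10, as its subject.

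The deposited matrices held 186439890 transcript counts (unique molecular identifiers, UMIs) over 12322 barcodes in CD replicate 1, 157373393 over 8330 in WT replicate 1 and 202584468 over 16649 in WT replicate 2. Barcodes with at least 1000 genes and at most 10% mitochondrial UMIs left 8548, 6564 and 11018 cells, with median depths of 18652.5, 20418.5 and 15508.5 UMIs. Between 14 and 27 barcode sequences were shared by any pair of these libraries. Sox9 itself had 688 UMIs per 1000000 (CPM) in otic cells of the CD library, as defined below, against 409 and 338 CPM in those of WT replicates 1 and 2. A 3′ count does not tell the changed copy from the normal one, so it checks no label.

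Otic cells had at least 1 UMI of the epithelial gene Epcam and at least 2 of Fbxo2, Hmx2, Hmx3 and Pax2 together, which gave 2778 cells in the CD library, 2537 in WT replicate 1 and 4083 in WT replicate 2. Within them, 4 overlapping subsets were taken by at least 1 UMI of Isl1, of Rdh10, of Otx1 or Otx2 (called Otx here), or of Rorb. The Otx subset held 571, 661 and 931 cells of the 3 libraries in that order, and 45.9%, 33.1% and 36.2% of them also had an Isl1 UMI. Mesenchyme (at least 2 UMIs of Prrx1 and Twist1 together and none of Epcam) held 1860, 1083 and 2508 cells, and surface ectoderm (Epcam and Trp63) 103, 51 and 100. A level below is in CPM, the UMIs of a gene per 1000000 UMIs summed over all cells of that group in 1 library. A sum does not tell more cells carrying a transcript from more transcript per cell, and levels of different genes are not compared with each other.

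The groups were checked against lists of marker genes, which include the genes that set them. Otic markers summed to 1451 CPM in otic cells of CD, 1893 in those of WT replicate 1 and 2289 in those of WT replicate 2, against 41.9, 53.9 and 76.6 CPM in mesenchyme. Mesenchymal markers summed to 164, 106 and 214 CPM in otic cells, against 2320, 2098 and 2071 CPM in mesenchyme. The surface ectoderm group went against its name in part, since 32.0%, 31.4% and 30.0% of its cells in CD, WT 1 and WT 2 also met the otic rule. Its otic markers, a list that includes the general epithelial genes Epcam and Cdh1, summed to 1004, 1343 and 1249 CPM beside 562, 705 and 625 CPM of surface ectoderm markers. It is therefore called the Trp63 group, and cells meeting both rules were left out only in the tests of otic cells against it. The levels of the group and its CD against WT test keep them. Without them its mean over the 3 libraries fell from 14.7 to 1.87 CPM for Bmp3 and from 10.6 to 3.63 for Bmper. For Fst it fell from 11.5 to 3.07 CPM, while Bmp4 went from 66.5 to 71.7 and Bmp7 from 40.7 to 41.6 CPM.

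Sequence upstream of the annotated start is shown for Bmp4, since it was the member whose level differed between the genotypes in the Otx subset, and for Bmp5 and Bmper, which differed there from the rest of the otic cells in opposite directions. RefSeq promoter windows (build GRCm38.p6) matched 4 of the 9 members, and the 250 bases before the start are printed 5′ to 3′ on the strand of the gene. They lie at chr14:46390670-46390919 (minus strand) for Bmp4, chr9:75775115-75775364 (plus strand) for Bmp5 and chr9:23222826-23223075 (plus strand) for Bmper. Capitals mark any match, on either strand, to AACAAT (a SOX motif), CTTTGA (TCF/LEF), CAGAC or GGCGCC (both SMAD motifs).
Bmp4: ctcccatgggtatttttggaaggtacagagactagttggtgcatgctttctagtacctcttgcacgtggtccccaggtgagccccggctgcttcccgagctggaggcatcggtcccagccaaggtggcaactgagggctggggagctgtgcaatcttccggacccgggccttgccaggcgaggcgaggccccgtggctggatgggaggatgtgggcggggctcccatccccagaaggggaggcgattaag
Bmp5: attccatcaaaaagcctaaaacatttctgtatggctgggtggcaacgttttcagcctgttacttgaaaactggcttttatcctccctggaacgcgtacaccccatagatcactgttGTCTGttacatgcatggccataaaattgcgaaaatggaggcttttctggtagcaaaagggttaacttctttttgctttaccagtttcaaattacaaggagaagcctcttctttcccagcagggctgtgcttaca
Bmper: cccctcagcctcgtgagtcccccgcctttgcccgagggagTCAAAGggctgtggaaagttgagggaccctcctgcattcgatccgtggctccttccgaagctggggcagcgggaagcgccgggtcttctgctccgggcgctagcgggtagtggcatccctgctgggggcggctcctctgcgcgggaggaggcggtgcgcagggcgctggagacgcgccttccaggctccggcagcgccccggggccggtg
The Bmp4 window held none of the 4 motifs, the Bmp5 window held 1 match to CAGAC and the Bmper window 1 match to CTTTGA, neither overlapping another motif. Among 32851 RefSeq promoter windows of this kind, AACAAT was present in 9.42%, CTTTGA in 13.8%, CAGAC in 42.2% and GGCGCC in 9.59%. The bases of the 3 windows were 63.2% G or C for Bmp4, 42.8% for Bmp5 and 71.6% for Bmper. A match is a run of letters and no measured binding site.

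Bmp4 averaged 84.6 CPM over the 3 libraries in the Isl1 subset, 66.5 in the Trp63 group, 58.2 in the Rorb subset, 41.5 in mesenchyme, 38.1 in the Otx subset, 34.8 in the Rdh10 subset and 17.4 in otic cells with none of these genes. Bmp3 was highest in the Rdh10 subset (34.2 CPM) and lowest in mesenchyme (1.30 CPM). Fst was highest in the Rorb subset (57.3 CPM) and lowest in otic cells with none of the subset genes (5.18 CPM). Bmper had the opposite end of this order, with 17.8 CPM in otic cells with none of the subset genes, 5.68 CPM in the Otx subset, 4.68 in the Rorb subset and 1.69 in mesenchyme.

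Many neighbours in these orders were not set apart by their libraries. For Bmp4, the libraries of neighbouring groups overlapped all the way from the Isl1 subset down to the Rdh10 subset, and the Rdh10 subset was then above the otic cells without subset genes in every library. For Bmp7 the order was the Trp63 group (40.7 CPM), the Rdh10 subset (39.7) and the cells without subset genes (37.6), all overlapping, then without overlap the Isl1 subset (31.4), the Rorb subset and the Otx subset (29.6), and then mesenchyme (16.4). Bmp2 stayed at or below 12.1 CPM in every group and library and no neighbouring groups were apart. Chrd stayed at or below 1.98 CPM and Nog at or below 3.48 CPM, so both rest on few UMIs.

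**Figure D1:**
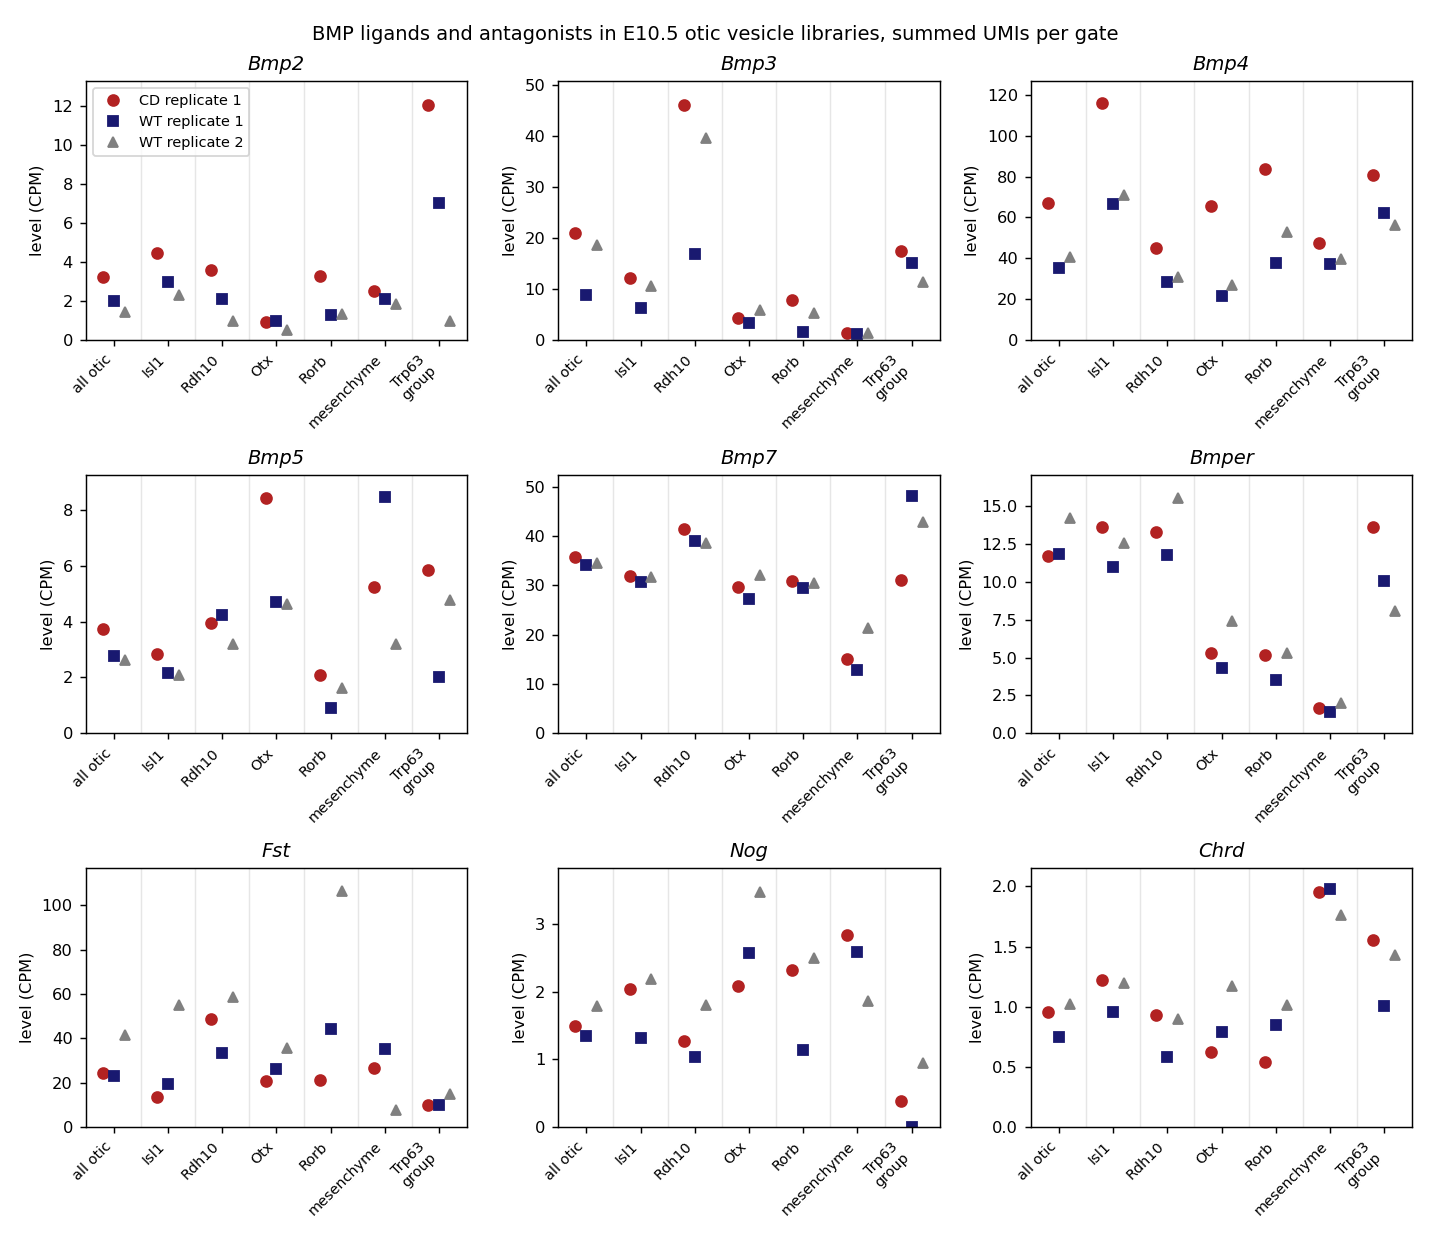
Levels of the 9 members in CPM (y axis, own scale for each gene) in 7 groups of cells (x axis), with 1 point per library (CD replicate 1, WT replicates 1 and 2). The Trp63 group shown includes cells that also met the otic rule. Bmp4 is highest in the Isl1 subset, Bmp3 in the Rdh10 subset and Fst in the Rorb subset, where its libraries span 21.3 to 106 CPM.

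For place within the otic epithelium, each subset was set against the rest of the otic cells of the same library with edgeR's quasi-likelihood test with the library as a block, on all genes with enough counts and with Benjamini-Hochberg adjustment. The rest of a subset includes cells of the other subsets, so a rise or fall is relative to a mixed rest. All 9 members passed the filter on low counts in each of these comparisons. In the Isl1 subset 5 of 9 members passed an adjusted p of 0.05 (2 higher and 3 lower) where 24.8% of all genes tested did. The Rdh10 subset had 5 of 9 (4 higher and 1 lower) against 39.3% of all genes, the Otx subset 7 of 9 (2 higher and 5 lower) against 24.2%, and the Rorb subset 6 of 9 (2 higher and 4 lower) against 16.0%. The median log2 fold change of the members was -0.02 in the Isl1, 0.11 in the Rdh10, -0.32 in the Otx and -0.24 in the Rorb comparison. A subset needs a UMI of its gene and so holds deeper cells, with medians of 26936, 31600 and 23791 UMIs in the Otx subset of CD, WT 1 and WT 2, against 21545, 23679 and 17591.5 in its rest. With every cell thinned to 5000 UMIs before the rules were applied, 3 of 9 members passed in the Isl1 comparison, 3 in the Otx comparison and 3 in the Rorb comparison, and Bmp2 and Nog, among others, then had too few UMIs to be tested in the Otx comparison. Calls over all genes fell with thinning too, from 3843 to 483 with Isl1, from 3735 to 678 with Otx and from 2474 to 334 with Rorb.

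Among the ligands, Bmp4 was the one most raised with Isl1, a LIM-homeodomain gene of sensory and neuronal precursors. Isl1 otic cells had 116, 66.6 and 71.2 CPM of Bmp4 in CD, WT replicate 1 and WT replicate 2, against 21.2, 12.3 and 15.8 CPM in the rest of the otic cells. Every Isl1 sum was above every other sum, and the log2 fold change was 2.36 with a standard error of 0.05 (edgeR, adjusted p = 8.23e-08). Markers of neuroblasts summed to 391.5, 390 and 484 CPM in this subset, above the 143, 113 and 145 CPM of otic cells with none of the subset genes. They summed to 5066, 5174 and 4622 CPM in a neuroblast group (at least 2 UMIs of Neurod1 and Stmn2 together and none of Epcam). Bmp4 in that neuroblast group was 10.7, 8.22 and 13.2 CPM. Bmp4 also rose in the Rorb subset, by a log2 fold change of 0.37 (standard error 0.06, edgeR adjusted p = 0.00141), where 66.3%, 56.1% and 62.4% of cells in CD, WT 1 and WT 2 also had an Isl1 UMI. The part of that overlap was not tested, and the call was lost after thinning (0.35, edgeR adjusted p = 0.396). Bmp4 fell in the Rdh10 subset by 0.71 on the log2 scale (standard error 0.06, edgeR adjusted p = 4.20e-07) against a rest that holds Isl1 cells. Rdh10 cells had 44.9, 28.6 and 31.0 CPM in CD, WT 1 and WT 2. Otic cells with none of the subset genes were lower in every library, at 22.0, 14.7 and 15.4 CPM.

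In the Otx subset Bmp4 was at 65.8, 21.3 and 27.1 CPM in CD, WT 1 and WT 2, against 67.3, 42.0 and 46.3 CPM in the rest. The CD library was thus nearly level and both WT libraries were lower in the subset, with a log2 fold change of -0.55 (standard error 0.15, edgeR adjusted p = 0.0289). The call was lost by edgeR without WT replicate 1 (-0.40, adjusted p = 0.116) or WT replicate 2 (-0.45, adjusted p = 0.0996), and by DESeq2 (-0.61, adjusted p = 0.171). The direction turned when cells with an Isl1 UMI were left out on both sides (0.68, edgeR adjusted p = 0.0127).

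Bmp2, a close relative of Bmp4, rose with Isl1 and fell with Otx. It had 4.46, 2.94 and 2.32 CPM in Isl1 cells of CD, WT 1 and WT 2, against 2.09, 1.29 and 0.715 CPM in the rest (log2 fold change 1.30, standard error 0.16, edgeR adjusted p = 0.000536). In the Otx subset it had 0.906, 0.958 and 0.508 CPM, against 4.005, 2.48 and 1.81 CPM in the rest (-1.77, standard error 0.20, edgeR adjusted p = 0.000511). Each library showed both directions.

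Bmp3, a family member known in bone as an inhibitor of other BMPs, followed Rdh10, a retinol dehydrogenase gene of retinoic acid synthesis. Rdh10 cells had 46.1, 16.9 and 39.6 CPM of Bmp3 in CD, WT 1 and WT 2, against 5.67, 3.13 and 5.96 CPM in the rest. All 3 libraries were higher in the subset, with a log2 fold change of 2.71 (standard error 0.08, edgeR adjusted p = 2.23e-11). Bmp3 fell in the other subsets, by 1.15 on the log2 scale with Isl1 (standard error 0.08, edgeR adjusted p = 2.05e-05), by 2.17 with Otx (standard error 0.12, adjusted p = 1.19e-05) and by 2.02 with Rorb. In the Rdh10 subset thinned to 5000 UMIs per cell, 18.1%, 8.16% and 16.2% of cells of CD, WT 1 and WT 2 had a Bmp3 UMI.

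Bmp5, which in mouse is known from the short-ear mutation, was the ligand that rose with Otx. The Otx subset had 8.43, 4.71 and 4.61 CPM in CD, WT 1 and WT 2, against 2.17, 1.84 and 1.81 CPM in the rest, with every library higher in the subset (log2 fold change 1.56, standard error 0.15, edgeR adjusted p = 0.000205). Cells with Otx1 had 8.60, 5.03 and 4.95 CPM, and cells with Otx2 2.04, 1.93 and 1.55 CPM. With the subset taken by Otx2 alone, the rest then holding Otx1 cells without Otx2, the difference from the rest turned to -0.81. Cells with Otx2 were near the 2.17, 1.84 and 1.81 CPM of otic cells with neither gene. Bmp5 fell by 0.60 on the log2 scale with Isl1 (standard error 0.12, edgeR adjusted p = 0.00646), a call lost with DESeq2 (-0.60, adjusted p = 0.143) and after thinning (-0.086). It fell by 1.12 with Rorb, and rose by 0.55 with Rdh10 (standard error 0.18, edgeR adjusted p = 0.0279), a call lost without WT replicate 1 (0.26, adjusted p = 0.258) and with DESeq2 (0.56, adjusted p = 0.129).

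Bmp7, a widely expressed ligand, differed in every subset by a small amount. It was at 31.9, 30.7 and 31.7 CPM in Isl1 cells of CD, WT 1 and WT 2, against 39.3, 36.9 and 36.7 CPM in the rest, which gave a log2 fold change of -0.25 (standard error 0.04, edgeR adjusted p = 0.00123). It fell by 0.32 on the log2 scale with Otx and by 0.25 with Rorb, and rose by 0.26 with Rdh10. The Isl1 difference turned to 0.015 after thinning, the Otx and Rorb calls were lost after thinning, and the Rorb call also with DESeq2 (adjusted p = 0.0624).

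Among the antagonists, Bmper was low where Otx or Rorb was present. BMPER is a chordin-like secreted protein that binds BMPs and can limit or aid their action. The Otx subset had 5.32, 4.33 and 7.39 CPM in CD, WT 1 and WT 2, against 13.8, 15.5 and 16.9 CPM in the rest (log2 fold change -1.45, standard error 0.11, edgeR adjusted p = 6.16e-05). All 3 libraries were lower in the subset, and Bmper also fell by 1.65 on the log2 scale with Rorb, with 5.19, 3.54 and 5.30 CPM in the subset against 13.1, 13.8 and 16.9 CPM in the rest.

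Fst, which encodes Follistatin, a strong binder of activins that also binds BMPs, rose in the Rdh10 and Rorb subsets. Rdh10 cells had 48.8, 33.3 and 58.8 CPM in CD, WT 1 and WT 2, against 9.55, 15.5 and 30.8 CPM in the rest (log2 fold change 1.30, standard error 0.17, edgeR adjusted p = 4.04e-05). Rorb cells had 21.3, 44.1 and 106 CPM, against 25.0, 17.9 and 21.5 CPM in the rest (1.32, standard error 0.31, edgeR adjusted p = 0.0126). Both WT libraries were higher in the Rorb subset and the CD library was not, and DESeq2 did not make this Rorb call (1.14, adjusted p = 0.453).

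Nog, the gene of Noggin, rose with Otx, at 2.09, 2.58 and 3.48 CPM in the subset of CD, WT 1 and WT 2, against 1.29, 0.741 and 1.10 CPM in the rest (log2 fold change 1.40, standard error 0.23, edgeR adjusted p = 0.00348). Chrd, the gene of Chordin, passed in none of the 4 subset comparisons by edgeR, with 0.623, 0.792 and 1.17 CPM in the Otx subset.

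**Figure D2:**
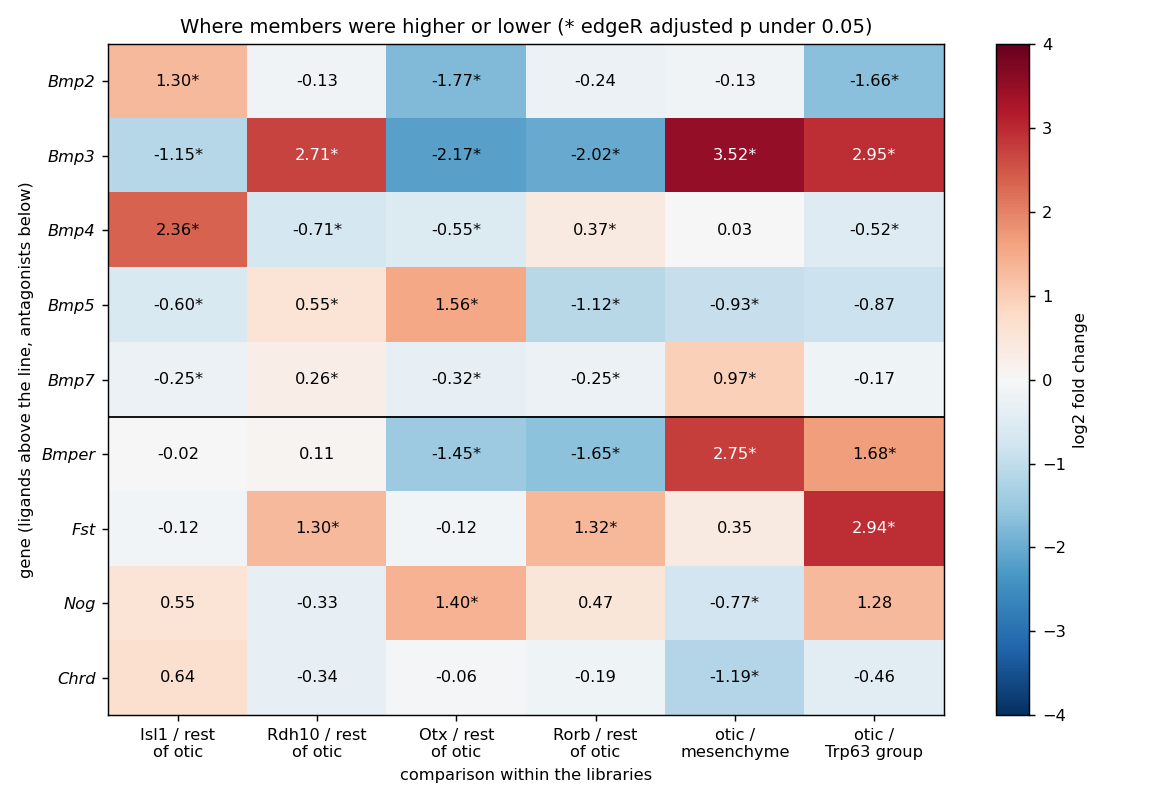
Log2 fold change (colour, first group over second) of the 9 members (rows) in 6 comparisons of place (columns), fitted over 3 libraries, with called members marked. Bmp4 is raised with Isl1 (2.36), Bmp3 with Rdh10 (2.71), Bmp5 and Nog with Otx (1.56 and 1.40) and Fst with Rdh10 and Rorb (1.30 and 1.32).

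Otic cells differed from mesenchyme in 6 of 9 members (3 higher and 3 lower), where 63.4% of all genes passed. Bmp3 (log2 fold change 3.52, standard error 0.16), Bmper (2.75, standard error 0.10) and Bmp7 (0.97, standard error 0.14) were higher in otic cells by edgeR, and Chrd (-1.19, adjusted p = 0.00308), Bmp5 (-0.93, adjusted p = 0.0220) and Nog (-0.77, adjusted p = 0.0284) were lower. Bmp4 had 67.0, 35.3 and 40.8 CPM in otic cells of CD, WT 1 and WT 2, against 47.4, 37.3 and 39.9 CPM in mesenchyme, groups that overlapped, with a log2 fold change of 0.03 (standard error 0.11) that did not pass. Leaving out CD replicate 1 ended the Bmp5 and Nog calls, and leaving out WT replicate 1, or TMM scaling, ended that of Nog.

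Against the Trp63 group, otic cells differed in 5 of 9 members (3 higher and 2 lower), where 19.4% of all genes passed by edgeR. Bmp3 (log2 fold change 2.95), Fst (2.94) and Bmper (1.68) were higher in otic cells, and Bmp2 (-1.66) and Bmp4 (-0.52) were lower. The Trp63 cells outside the otic rule held few UMIs. In CD, WT 1 and WT 2 these were 4, 0 and 3 of Bmp3, 9, 0 and 3 of Fst, 9, 2 and 1 of Bmper, and 18, 5 and 1 of Bmp2. In WT 2 Bmp2 was instead higher in otic cells (log2 ratio 0.66), and Bmp4 was nearly level (-0.03). Those Trp63 cells of WT replicate 1 held 0 UMIs of Bmp3, Fst, Nog and Chrd, so the fitted values of these 4 genes depend on the prior count. The calls of Bmp2 and Bmp4 ended without WT replicate 1 (edgeR adjusted p = 0.0959 and 0.190), that of Bmp2 also without CD replicate 1 (0.549), and that of Bmper without WT replicate 2 (0.0923).

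The genotypes were compared within each of the 7 cell groups, with 1 CD library against 2 WT libraries, so the spread came from the WT pair and from all genes. Bmp4 in the Otx subset was the member that passed. There the CD library had 65.8 CPM from 1163 UMIs, against 21.3 CPM from 511 UMIs and 27.1 CPM from 692 UMIs in WT replicates 1 and 2. CD was above both WT libraries, which averaged 24.2 ± 4.08 CPM (SD, n = 2). The log2 fold change of 1.38 (standard error 0.18) had an adjusted p of 0.00809 by edgeR, and 1 of 9 members passing stands beside 0.213% of all genes tested.

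A larger share of the cells of the Otx subset held a Bmp4 transcript in CD. A Bmp4 UMI was found in 51.0% of Otx cells of CD (exact 95% interval 46.8 to 55.1%), against 32.4% (28.8 to 36.1%) in WT 1 and 31.4% (28.4 to 34.5%) in WT 2. At 5000 UMIs per cell the shares were 20.7% in CD, against 10.4% and 12.03% in WT 1 and WT 2, with 2, 0 and 8 shallower cells left out. The neuroblast group, taken as background, had 2.52%, 2.87% and 5.42% at that depth and 11.8%, 7.24% and 11.8% without thinning.

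The Bmp4 difference was also present with either Otx gene taken alone and in cells without Isl1. Otx1 cells had 64.8 CPM in CD, against 20.5 and 25.4 CPM in WT 1 and WT 2 (log2 fold change 1.43, edgeR adjusted p = 0.00970). Otx2 cells had 43.5 CPM, against 15.7 and 20.9 CPM (1.197, edgeR adjusted p = 0.0457). Otx cells with no Isl1 UMI had 37.9 CPM, against 13.9 and 18.9 CPM (1.15, edgeR adjusted p = 4.35e-07). The call was lost with Scrublet doublets removed (1.32, edgeR adjusted p = 0.123) and after thinning (1.32, adjusted p = 0.0580). The subset was 20.6% of otic cells in CD, against 26.1% and 22.8% in WT 1 and WT 2. Its Otx1 level was 142 CPM in CD, against 104 and 102 CPM, its Otx2 level 80.4 CPM, against 113 and 147 CPM, and its otic markers summed to 1582 CPM, against 2096 and 2661 CPM. Erythroid genes there summed to 3223 CPM, against 3924 and 10466 CPM (6 of 6 genes below both WT libraries), macrophage genes to 2.26 CPM, against 3.92 and 21.3 CPM (5 of 6), and neural crest and glia genes to 219.8 CPM, against 293.1 and 292.9 CPM (5 of 6). The part of these gaps in the Bmp4 difference, beyond the values for either Otx gene alone, was not tested.

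Bmp4 was above both WT libraries in the CD library in each of the other groups as well, without passing. In all otic cells it had 67.0 CPM in CD, against 35.3 and 40.8 CPM in WT 1 and WT 2 (log2 fold change 0.76, standard error 0.15, edgeR adjusted p = 0.162), and DESeq2 gave an adjusted p of 0.0201. The log2 fold changes were 0.70 in the Isl1 subset (edgeR adjusted p = 0.283), 0.53 in the Rdh10 subset (0.535), 0.81 in the Rorb subset (0.387), 0.26 in mesenchyme and 0.40 in the Trp63 group. The subsets lie within the otic group, so these values share cells.

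Elsewhere 0 of the members tested passed by edgeR. The share of all genes that passed was 0.0932% in otic cells, 0.0569% in the Isl1 subset, 0.0944% in the Rdh10 subset, 0.021% in the Rorb subset, 0.0384% in mesenchyme and 0.58% in the Trp63 group, so calls were rare among all genes too. DESeq2 called 1 member in otic cells and 0 in each of the other 5 groups. At an unadjusted p under 0.05 there were 2 of 9 members in otic cells (4.08% of all genes), 3 in the Isl1 subset (3.15%), 2 in the Rdh10 subset (4.05%), 4 in the Rorb subset (4.03%) and 0 in mesenchyme (1.19%). The Trp63 group had 2 of the 7 that passed the filter on low counts, Nog and Chrd being too low there (5.59% of all genes). The median log2 fold change of the 9 members was 0.06 in otic cells and -0.15 in the Otx subset.

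The other ligands gave values that did not pass. Bmp2 in otic cells was at 3.23 CPM in CD, against 1.99 and 1.44 CPM in WT 1 and WT 2 (log2 fold change 0.86, standard error 0.29, edgeR adjusted p = 0.790). Bmp3 was at 20.9 CPM in CD, against 8.87 and 18.5 CPM, so that the WT pair itself lay far apart, and the log2 fold change of 0.55 (standard error 0.33) became 0.10 without WT replicate 1 and 1.18 without WT replicate 2. Bmp5 in the Otx subset was at 8.43 CPM in CD, against 4.71 and 4.61 CPM (0.80, standard error 0.25, edgeR adjusted p = 0.520). Bmp7 in otic cells was at 35.8 CPM in CD, against 34.3 and 34.5 CPM, with a standard error of 0.15 on the log2 scale.

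Of the antagonists, Fst had the lowest fitted values in CD, with wide gaps between the WT libraries. In the Rorb subset it was at 21.3 CPM in CD, against 44.1 and 106 CPM in WT 1 and WT 2 (log2 fold change -1.89, standard error 0.40, edgeR adjusted p = 0.216). In the Isl1 subset it was at 13.5 CPM in CD, against 19.3 and 55.1 CPM (-1.52, standard error 0.46, edgeR adjusted p = 0.837). CD was below both WT libraries in these subsets and in the Otx subset (20.7 CPM, against 26.1 and 35.4), and lay between them in otic cells (24.3, against 22.9 and 41.3) and in the Rdh10 subset (48.8, against 33.3 and 58.8). Bmper in otic cells was at 11.7 CPM in CD, against 11.9 and 14.2 CPM, Nog at 1.49, against 1.34 and 1.79 CPM, and Chrd at 0.956, against 0.744 and 1.02 CPM.

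**Figure D3:**
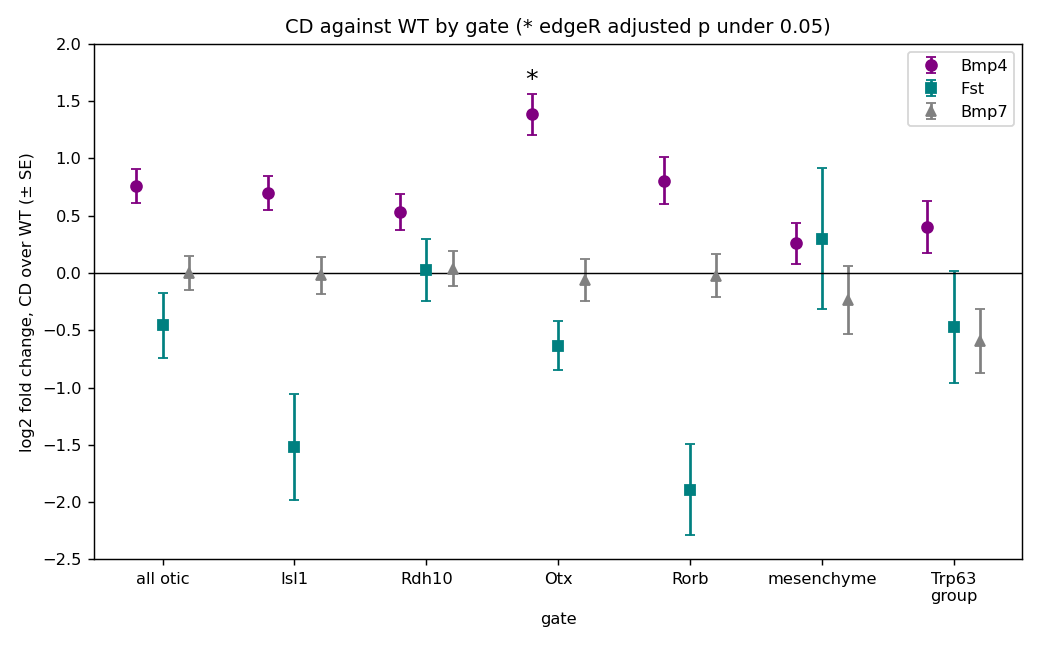
Log2 fold change of CD over WT (points, with bars of 1 standard error, from 1 CD and 2 WT libraries) for Bmp4, Fst and Bmp7 in 7 groups of cells, with a star where the adjusted p is at most 0.05. Bmp4 in the Otx subset (1.38) carries the star, Fst is at -1.89 in the Rorb subset, and Bmp7 is near 0 in the otic subsets.

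Whether the CD difference itself varied within the otic epithelium was tested as the CD over WT ratio in a subset minus that in the rest, with the library as a block. These 4 comparisons share their libraries and much of their cells. Bmp4 in the Otx subset differed by 0.83 (standard error 0.09, edgeR adjusted p = 0.00532, 1 of 9 members where 0.337% of all genes passed). The subset over rest ratio of Bmp4 was -0.03 on the log2 scale in CD, against -0.98 and -0.77 in WT 1 and WT 2. In the Rdh10 subset Bmp4 differed by -0.31 (standard error 0.08, edgeR adjusted p = 0.0108), with ratios of -0.84 in CD, against -0.48 and -0.59. That Rdh10 call held in 1 of 8 alternatives, and the value was -0.014 with at least 2 UMIs of Rdh10 required and 0.78 after thinning. The Otx call was lost with DESeq2 (0.83, adjusted p = 0.193), after thinning (0.63) and with Otx2 alone (0.55).

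Fst showed the widest differences of this kind. Its Rdh10 over rest ratio was 2.35 on the log2 scale in CD, against 1.11 and 0.93 in WT 1 and WT 2, a difference of 1.34 (standard error 0.10, edgeR adjusted p = 5.08e-34, 2 of 9 members where 1.01% of all genes passed). Its Isl1 over rest ratio was -1.35 in CD, against -0.40 and 0.88, a difference of -1.72 (standard error 0.19, edgeR adjusted p = 6.93e-09, 2 of 9 where 1.72% passed). Its Rorb over rest ratio was -0.23 in CD, against 1.30 and 2.31, a difference of -2.12 (standard error 0.23, edgeR adjusted p = 5.67e-06, 1 of 9 where 0.361% passed). CD lay outside the WT range in all 3, above it with Rdh10 and below it with Isl1 and Rorb. Within the Rdh10 subset itself, the CD over WT log2 fold change of Fst was 0.03 (standard error 0.27), with CD between the WT libraries. In the rest of the Rdh10 comparison, which holds Isl1 and Rorb cells, CD was below both, at 9.55 CPM, against 15.5 and 30.8 CPM in WT 1 and WT 2. The WT libraries themselves lay far apart in the Isl1 and Rorb ratios. The small standard errors come largely from spread shared between genes and do not measure that gap. The size rested on the WT library kept, at -2.23 without WT replicate 1 and -0.96 without WT replicate 2 for Isl1, and -2.53 and -1.56 for Rorb. The call held in 5 of 8 alternatives tested for Isl1, 6 of 8 for Rorb and 7 of 8 for Rdh10.

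Bmper was the remaining member to differ, by 0.71 between the Isl1 subset and the rest (standard error 0.14, edgeR adjusted p = 0.000691). Its Isl1 over rest ratios were 0.46 in CD, against -0.18 and -0.30 in WT 1 and WT 2. Within the Isl1 subset its CD over WT log2 fold change was 0.15 (standard error 0.21) and did not pass. In the rest CD was below both WT libraries, at 9.91 CPM, against 12.5 and 15.5 CPM. Otic cells with none of the subset genes had 10.6 CPM of Bmper in CD, against 21.7 and 21.1 CPM, a gap that was not tested. In the differences between the subsets and their rest, DESeq2 called far fewer of all genes than edgeR did. DESeq2 called 1 member in the Rdh10 difference and 0 in each of the other 3. For otic cells against mesenchyme 0 of 9 passed by edgeR (0.0% of all genes), and against the Trp63 group 0 of 9 (0.152% of all genes), with 0 by DESeq2 in both. At an unadjusted p under 0.05 there was 1 member against mesenchyme (2.38% of all genes) and 2 against the Trp63 group (3.63%).

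**Figure D4:**
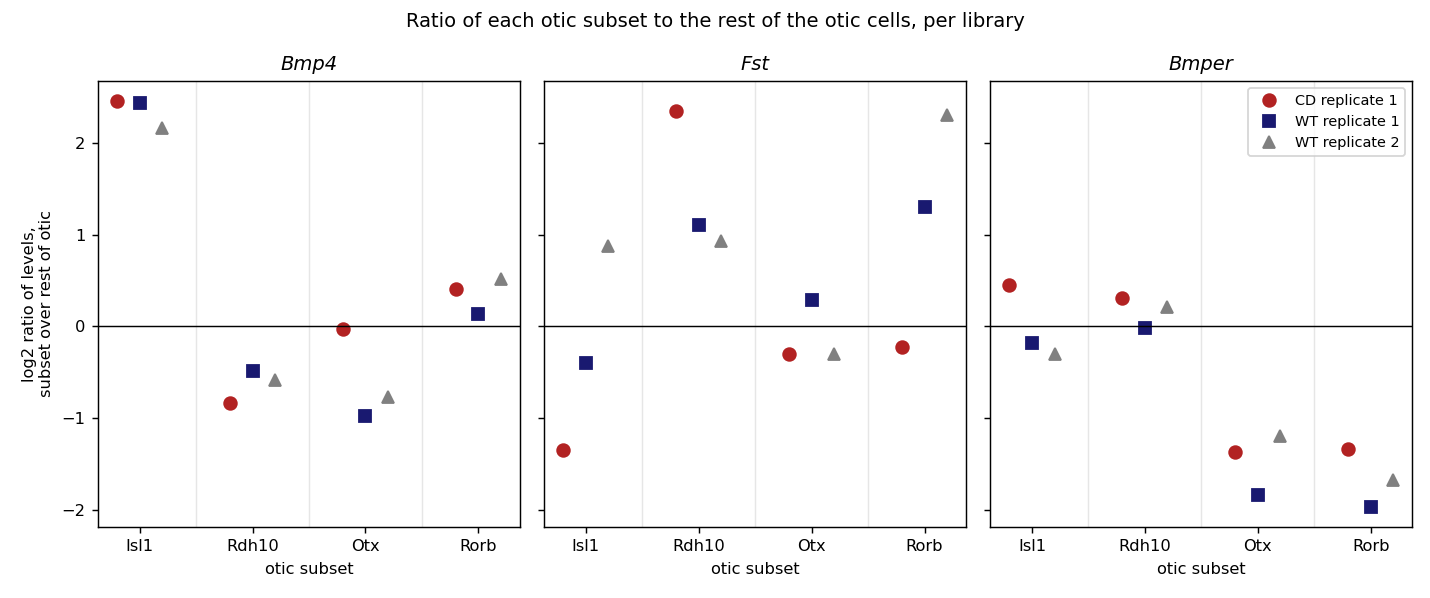
Log2 ratio of the level in a subset to that in the rest of the otic cells (y axis) for Bmp4, Fst and Bmper, with 1 point per library. The CD point of Bmp4 in the Otx subset (-0.03) lies above both WT points, and that of Fst lies above them in the Rdh10 subset (2.35) and below them in the Rorb subset (-0.23).

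Members were also counted together in single otic cells. At 5000 UMIs per otic cell, a Fst UMI was found in 2.17% of the 460 cells with Bmp4 in CD, against 7.30% of the 2274 without. The values were 4.09% of 269 cells and 7.65% of 2248 in WT 1, and 13.7% of 483 and 10.0% of 3489 in WT 2. The order was thus opposite in WT 2. Bmp3 was found in 1.30%, 1.12% and 4.55% of cells with Bmp4 in CD, WT 1 and WT 2, against 9.45%, 4.31% and 7.14% of cells without, and Bmp7 in 14.8%, 14.1% and 15.5%, against 16.4%, 15.6% and 15.0%.

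Genes with the most similar pattern were taken as those of highest Pearson r over 21 sums (7 groups by 3 libraries, so that points of a library share their depth) among 9027 candidates, as a description. Bmp4 was most like Soga3 (r = 0.84) and Elavl3 (0.81), and Bmp3 most like Col14a1 (0.96), 4930417H01Rik (0.94) and Tulp2 (0.93). Bmp7 was most like Tmem53 (0.96), Mdk (0.95) and Ifi30 (0.94). Bmper was most like Dera (0.92), Dync1i1 (0.92) and Plxna4 (0.91), and Fst most like Eef2 (0.75), Rspo2 (0.71) and Efhd2 (0.70).

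The rest of the pathway was followed in 5 lists of other ligands (12 genes), other antagonists and modulators (19), receptors and co-receptors (13), SMADs with the SMURF ligases (8) and the response genes Id1, Id2, Id3, Id4, Msx1 and Msx2 (6), known direct targets of BMP signalling in many tissues. Between CD and WT, 0 genes of any list passed in any of the 7 groups by edgeR. The CD difference itself differed between the Isl1 subset and the rest for Crim1 (0.48), Msx1 (-0.45), Id4 (0.30) and Id3 (0.26), and between the Rdh10 subset and the rest for Gdf11 (0.28) and Eng (-1.42), all 6 of them lost with DESeq2. DESeq2 also called far fewer of all genes than edgeR in both comparisons, so its loss of a single gene says little. In otic cells the medians of the log2 fold changes were 0.17 over 6 ligands tested, -0.03 over 15 modulators, 0.03 over 13 receptors, 0.13 over 8 SMADs and 0.23 over 6 response genes. The response gene of smallest p was Msx2, a homeobox gene, at 50.0 CPM in CD, against 31.8 and 32.9 CPM in WT 1 and WT 2 (log2 fold change 0.57, standard error 0.14, edgeR adjusted p = 0.354). Crim1, of a membrane protein that binds BMPs, was at 42.7 CPM in CD, against 24.8 and 26.8 CPM (0.67, standard error 0.15, edgeR adjusted p = 0.256). The other genes of smallest p per list in otic cells were Bmp8a (0.61), Bmp8b (0.56), Msx1 (0.41), Smad7 (0.33), Bambi (0.30), Bmpr2 (0.27), Smurf2 (0.25) and Sost (-2.48, with 0.0563 CPM in CD, against 0.243 and 0.371 CPM in WT 1 and WT 2). In the Otx subset Gdf6, a ligand of the family, was at 8.55 CPM in CD, against 3.87 and 4.26 CPM (1.01, edgeR adjusted p = 0.269), and Id2 at 468 CPM, against 339 and 313 CPM (0.46, edgeR adjusted p = 0.388).

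Within the otic epithelium the calls in the lists stand beside the shares of all genes given for the same subsets, 24.8% with Isl1, 39.3% with Rdh10, 24.2% with Otx and 16.0% with Rorb. Of the response genes, in the Isl1 subset 5 of 6 rose and 1 fell (list median 0.55). Id3, of an inhibitor of helix-loop-helix factors, had 673, 722 and 705 CPM in Isl1 cells of CD, WT 1 and WT 2, against 361, 442 and 475 CPM in the rest (log2 fold change 0.73, edgeR adjusted p = 1.43e-05), and Id2, Id1 and Id4 rose by 0.59, 0.59 and 0.52. In the Rdh10 subset 2 rose and 3 fell (median -0.20), with Msx2 at 82.4, 46.3 and 52.7 CPM, against 30.3, 21.4 and 20.99 CPM in the rest (1.25, edgeR adjusted p = 3.24e-10) and Id3 down by 0.51. In the Otx subset 0 rose and 3 fell (median -0.09), with Msx2 at 16.0, 10.9 and 12.8 CPM, against 61.2, 41.8 and 40.9 CPM (-1.85, edgeR adjusted p = 1.15e-06). The fall of Id3 there (-0.16) was lost without WT replicate 1 and turned to 0.14 without Isl1 cells. In the Rorb subset 3 rose and 2 fell (median 0.16), with Id4 up by 0.86 and Msx2 down by 1.56.

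Among receptor-side and extracellular genes, Bambi, of a pseudoreceptor that dampens BMP signals, had 95.3, 74.5 and 74.0 CPM in Rdh10 cells of CD, WT 1 and WT 2, against 50.9, 39.9 and 37.4 CPM in the rest (log2 fold change 0.87, edgeR adjusted p = 1.48e-10), and fell by 1.14 in the Otx and 0.81 in the Rorb subset. Of 13 receptors and co-receptors, 3 rose and 3 fell with Isl1, 3 and 3 with Rdh10, 2 and 3 with Otx, and 3 and 2 with Rorb, of which Acvr1 with Isl1 and with Rorb and Bmpr1b with Rdh10 and with Otx turned after thinning. Of 13 modulators tested, 2 rose and 2 fell with Isl1, 4 and 2 with Rdh10, 2 and 3 with Otx, and 1 and 3 with Rorb. Crim1 had 68.8, 41.2 and 38.7 CPM in Isl1 cells, against 18.4, 12.7 and 17.0 CPM in the rest (1.60, edgeR adjusted p = 1.65e-05). Gdf6 had 17.1, 13.9 and 14.5 CPM in Rorb cells, against 2.23, 1.69 and 0.747 CPM in the rest (3.35, edgeR adjusted p = 5.60e-07). Of the 8 genes of the list of SMADs and SMURF ligases, 4 rose with Isl1, among them the inhibitory Smad7 (0.45), and 0 fell. The rise of Smad1 there (0.17) was lost with DESeq2, after thinning and without WT replicate 2.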

How the data were processed

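The deposited matrices hold raw UMI counts per gene and barcode, made with Cell Ranger 6.0.0 per the file headers and build mm39 per the submitters' processing notes, from 10x Chromium 3′ libraries. Counts were not normalised before deposit, the annotation is not given in the sources used here, and cell barcodes were those deposited. Barcodes were kept as cells at 1000 or more genes and no more than 10% mitochondrial UMIs. Scrublet (scanpy 1.11.5, expected rate 5%) marked 3.29% of these in CD, 2.80% in WT 1 and 3.39% in WT 2, and they were kept except in an alternative. Groups of cells were set by UMI thresholds, and a subset was taken as at least 1 UMI of its gene.

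UMIs were summed per library and group, since cells are not replicates, and fitted over all genes with edgeR 4.0.16 in R 4.3.3 (TMM scaling, filterByExpr, quasi-likelihood test, Benjamini-Hochberg adjustment, threshold 0.05), in 19 comparisons (7 of genotype, 6 of place, 6 of the difference of the CD effect), adjusted within each. CD against WT has 1 residual degree of freedom, from the WT pair, and CD, being 1 library, is taken to have the spread of WT. Spread is also shared between genes, which added a median of 8.75 prior degrees of freedom for otic cells and 11.1 for the Otx subset. For the CD effect difference it added 51.9 with Isl1, 24.1 with Rorb and 579 with Rdh10, and the Trp63 fits had an infinite prior. The very small p-values there therefore rest on spread shared between genes (the Fst difference with Rdh10 has an adjusted p of 5.28e-06 by DESeq2). The labels do not state whether the 2 WT pools came from different litters, and the spread behind the p-values may therefore be technical. The WT libraries differed by a chi-square of 55.5 per degree of freedom over 17977 genes and were counted as 2 samples. With a single CD library, genotype and library cannot be told apart. Standard errors were worked back from the log2 fold change and its quasi-likelihood F value, and TMM was not applied to the levels.

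Shares of cells are given as counted and with each cell thinned to 5000 UMIs, and exact (Clopper-Pearson) intervals at 95% cover counting error only. In sparse droplet data a share of cells with a UMI includes free RNA. The members and gene lists were chosen with earlier results of these data known. By rule, all 9 members are named, and from each other list up to 4 genes past the threshold with a mean of at least 10 CPM, or the 2 of smallest p, of which the text gives a part. Alternatives were DESeq2 1.42.0, no TMM, no gene filter, a looser cell filter (500 genes, 20% mitochondrial UMIs), Scrublet doublets or mixed cells left out, thinning before grouping, at least 2 UMIs of the subset gene, and each library left out. Taking Otx1 or Otx2 alone and leaving out cells with Isl1 were added after the data were seen. One of the genes most similar to a member is not reported here.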

Additional observations from a re-analysis of the deposited data

Results flagged for a closer look

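The CD over WT ratio differed between a subset of the otic cells and the rest of them, by edgeR's test of that difference, for 3 members and 6 results. For Bmp4 the difference was 0.83 on the log2 scale in the Otx subset and -0.31 in the Rdh10 subset, the Rdh10 value passing in 1 of 8 alternatives and reaching -0.014 with at least 2 UMIs of Rdh10 required. For Fst it was 1.34 in the Rdh10 subset, -1.72 in the Isl1 subset and -2.12 in the Rorb subset, and for Bmper 0.71 in the Isl1 subset. Within the Rdh10 subset itself, Fst in CD lay between the WT libraries (48.8 CPM, against 33.3 and 58.8 in WT 1 and WT 2). In the rest of the Rdh10 comparison it was below both (9.55 CPM, against 15.5 and 30.8). The comparisons share their 3 libraries. Fst moved most with the WT library kept, at -2.23 in the Isl1 subset without WT replicate 1 and -0.96 without WT replicate 2, and -2.53 and -1.56 in the Rorb subset. In otic cells of the CD library, markers of neural crest and glia summed to 177 CPM, against 273 and 274 CPM in WT 1 and WT 2, with 6 of 6 genes below both WT libraries, and haemoglobin and other erythroid genes to 6921 CPM, against 3847 and 6745 CPM. In the Otx subset the erythroid sum was lower in CD, at 3223 CPM, against 3924 and 10466 CPM. Their part in these differences was not tested.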

How the results depend on the processing

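Across the alternatives, 140 counts of members stayed within 1.5 times the reported count and 32 moved. For CD against WT, 1 member passed in otic cells with DESeq2, with no gene filter and after thinning (0 reported), and in the Isl1 subset 2 with no filter, in the Rdh10 subset 1 with no filter and 1 after thinning, and in the Rorb subset 2 with no filter and 1 after thinning. In the Otx subset 0 passed without Scrublet doublets and after thinning (1 reported, Bmp4, with adjusted p between 4.35e-07 and 0.123 by edgeR or DESeq2 and past the threshold in 9 of 11 alternatives). Of the subset comparisons, thinning left 3 members with Isl1, 3 with Otx and 3 with Rorb. Of all genes it left 483, 678 and 334 calls there, against 3843, 3735 and 2474 without thinning. Otic cells against the Trp63 group kept 3 with DESeq2, 2 after thinning, and 3 to 4 with a library left out. For the difference of the CD effect, the Isl1 subset had 0 with DESeq2, without TMM and after thinning. The Rdh10 subset had 1 with DESeq2, no filter, the looser cell filter, doublets or mixed cells left out and 2 UMIs required, and 0 after thinning. The Otx subset had 0 with DESeq2, after thinning and with Otx2 alone, and 2 with no filter, and the Rorb subset 0 with DESeq2 and after thinning. Of single values of the members 473 kept their side, 45 lost the threshold, 8 gained it, 16 without a test moved and 5 turned: Fst in otic cells, CD over WT (0.031 without WT replicate 2, -0.83 without WT replicate 1), Bmp7 with Isl1 after thinning (0.015), Bmp5 with Otx2 alone (-0.81), Bmp4 with Otx without Isl1 cells (0.68), and the Bmp4 difference in the Rdh10 subset after thinning (0.78). Why these values turned was not tested. After thinning, CD, WT 1 and WT 2 held 312, 163 and 427 Isl1 cells, 124, 112 and 240 Rdh10 cells and 117, 114 and 217 Otx cells. Of 95 calls of named genes in the other pathway lists, 51 held in every alternative tested, 44 were lost or turned in at least 1, and 7 turned (Acvr1 with Isl1 and Rorb, Bmpr1b with Rdh10 and Otx, Id3 with Otx, and Smurf2 and Bambi in otic cells against mesenchyme and the Trp63 group). Leaving TMM out shifted the median of all genes by 0.13 in otic cells against mesenchyme and by under 0.1 elsewhere. All-gene calls also moved, in CD against WT from 16 (edgeR) to 61 (DESeq2) and 155 (no filter) in otic cells, and in the Trp63 group from 65 to 1 and 0. CD and WT libraries were not paired, since the labels give no link between a CD and a WT library. The tests of place and of the CD effect difference compared groups of cells within each library.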
